A study of Mus musculus with 6 samples.

Results

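The S100 proteins are a family of small calcium-binding proteins found in vertebrates, and 10 of their genes were followed here in mouse knee chondrocytes of 2 stages: *S100a1*, *S100a4*, *S100a6*, *S100a8*, *S100a9*, *S100a10*, *S100a11*, *S100a13*, *S100a16* and *S100b*. They were chosen by name, with earlier results of these data known, and all 10 were found among the 22032 genes of the expression table. The samples were 3 of embryonic cartilage, at E16.5, and 3 of adult cartilage, at 2 months (the labels give the embryonic age as 16.5 wks, the study's methods as the embryonic day). Cells released by digestion were sorted for the receptor BMPR1B and against alkaline phosphatase and markers of blood and endothelium (CD45, Ter119 and CD31), so they stand for the BMPR1B+ cells of the knee and not for all cartilage. The adults were male B6 mice, while the methods name no strain for the embryos. The sex of the embryos and the number of animals per sample are not given in the sources used here, so p-values measure the spread between these samples. A difference in strain or sex between the stages could not be told apart from stage.

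Each S100 protein carries a pair of EF-hands, the helix-loop-helix fold that holds calcium, and most work as dimers. When calcium binds, the dimer opens a surface that grips other proteins, among them annexins and proteins of the cytoskeleton. Some members are also released from cells and act on surface receptors such as RAGE and TLR4. In cartilage the family is best known from S100A1 and S100B, which pathologists use to mark cartilage cells, and from the S100A8 and S100A9 pair, which is abundant in neutrophils and is followed in inflamed joints.

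Levels are given as TPM, a length-corrected share of all transcripts, so different genes can be set side by side. TPM keeps no sequencing depth, and no counting error can be given. Stages were compared with limma on log2(TPM + 1) for the 13125 genes that averaged 1 TPM or more, and a gene was called at a Benjamini-Hochberg adjusted p under 0.05. For genes at low level, differences on that scale come out too small. Of all genes tested 45.3% were called, 23.9% higher and 21.4% lower in adult chondrocytes, around a median log2 fold change of 0.16. That median was 0.03 under median of ratios scaling. A listed 0 need not mean an absent transcript. Beside at least 20 TPM in both other samples of a stage 6 zeros were found, and their source was not tested. *S100a8* and *S100a9* in adult replicate 2 are among them. All 10 chondrocyte markers examined were above 0 in every sample, *Col2a1* at 3166 to 15250 TPM and *Sox9* at 391.9 to 900.9 TPM, but 4 were called higher and 5 lower in adult chondrocytes. They ranged from *Prg4*, with 122.7 to 193.9 TPM in embryonic and 23820 to 26390 TPM in adult samples, to *Matn3*, with 181.4 to 233.8 TPM and 1.11 to 3.65 TPM.

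The family made up a larger share of the transcripts in adult chondrocytes, and a different member led it. The 10 genes summed to 3063, 3560 and 3184 TPM in embryonic replicates 1 to 3 and to 4680, 4169 and 5028 TPM in adult replicates 1 to 3. This was 0.306 to 0.356% of all embryonic TPM and 0.417 to 0.503% of all adult TPM. *S100a10* and *S100a11* together held 77.2 to 80.8% of the embryonic sum but 22.3 to 29.8% of the adult sum. *S100a6* held 14.4 to 17.4% of the embryonic sum and 50.8 to 56.7% of the adult sum. Apart from *S100a6*, the members together held less TPM in each adult sample than in any embryonic one. In bulk samples, fewer cells with a transcript and less of it per cell cannot be told apart.

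**Figure D1:**
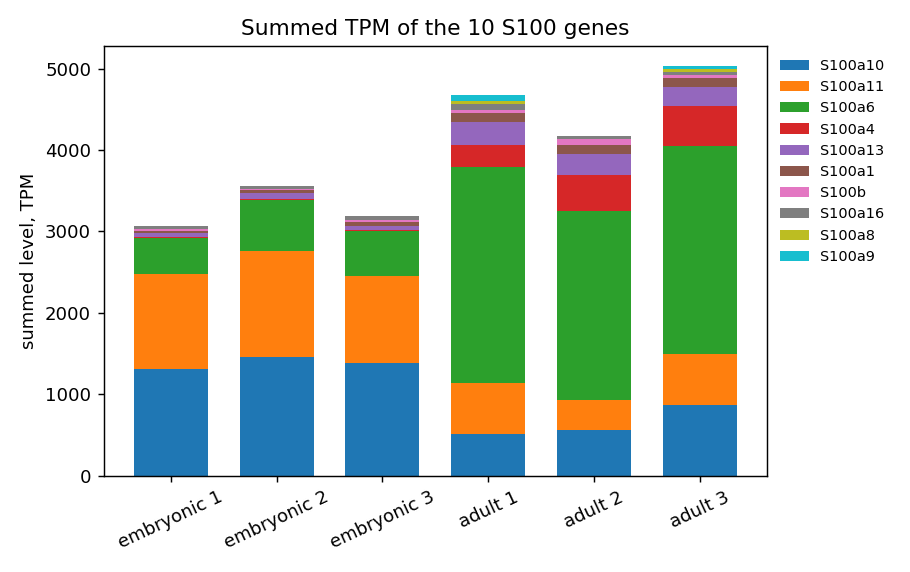
Summed TPM of the 10 S100 genes, with 1 bar per sample and 1 coloured segment per gene. *S100a10* and *S100a11* make up 77.2 to 80.8% of the embryonic bars, and *S100a6* makes up 50.8 to 56.7% of the adult bars.

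Of the 10 members, 7 were called higher in adult chondrocytes, beside 23.9% of all genes, and 2 were called lower, beside 21.4%. Of the 4 S100 genes tested outside these members, 0 were called. *S100a8* and *S100a9* entered the test only through the adult samples, being listed at 0 in every embryonic one. Among the 8 members above 0 in all 6 samples, 5 were higher, 2 were lower and *S100a16* was not called. The median log2 fold change was 1.47 for these 8 and 1.92 for all 10. Without embryonic replicate 2 the number of higher members was 4, since *S100b*, *S100a8* and *S100a9* lost their calls. All adult values lay above all embryonic values for 5 members, beside 30.7% of all genes, and below them for 2, beside 25.9%. Ranges that did not overlap, in either direction, were found for 56.5% of all genes.

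**Figure D2:**
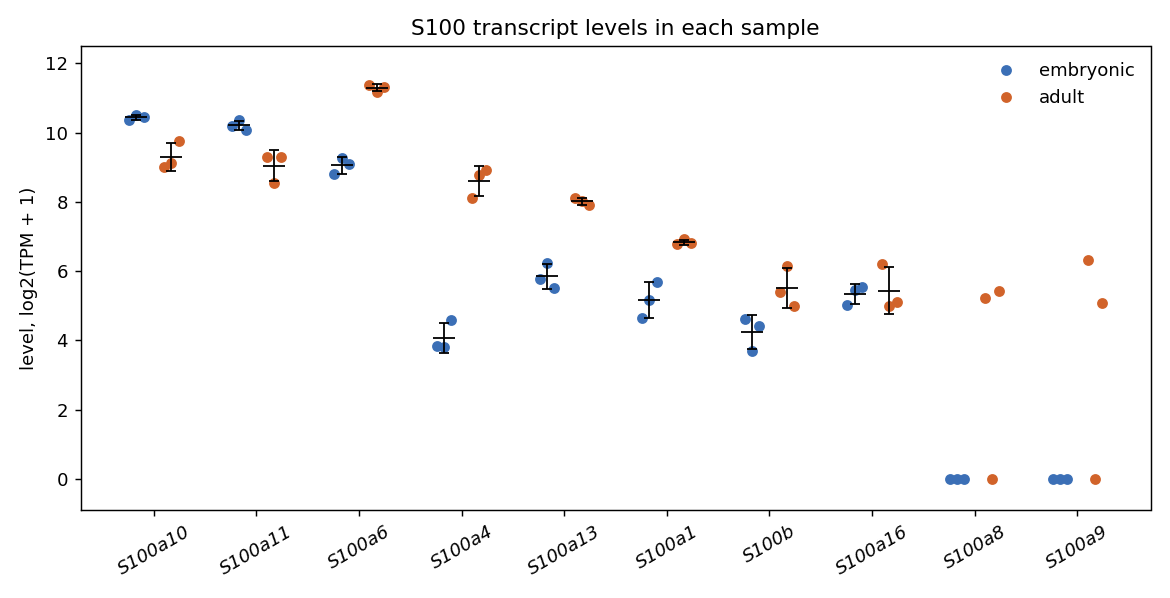
Level of each S100 gene as log2(TPM + 1), with 1 point per sample, embryonic in blue and adult in orange, and black bars for the mean and SD of 3 samples. No mean is drawn for *S100a8* and *S100a9*, which were listed at 0 in 4 of the 6 samples.

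**Figure D3:**
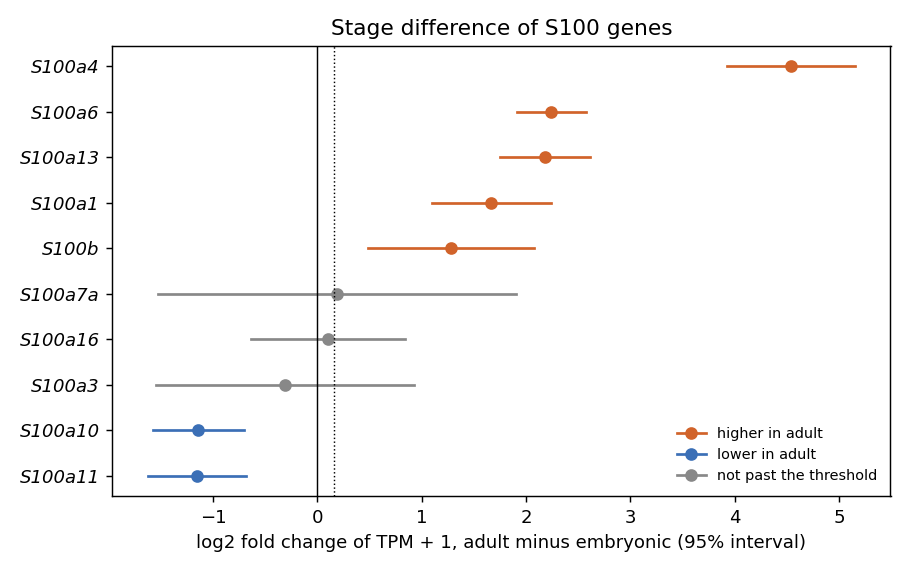
Difference between the stages for S100 genes tested, as the log2 fold change of TPM + 1, adult minus embryonic, with 95% limma intervals. The solid line marks 0 and the dotted line the median of all genes tested, 0.16. The intervals of *S100a3*, *S100a7a* and *S100a16* include 0, and genes listed at 0 in most samples of a stage are left out.

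*S100a4* had the largest rise among the members above 0 in every sample. Its product, also called fibroblast-specific protein 1 or metastasin, binds non-muscle myosin and is linked to cell movement. The gene (ENSMUSG00000001020) lies at chr3:90603771-90606045 on the plus strand of GRCm38. Embryonic replicates 1 to 3 held 13.3, 12.95 and 22.8 TPM, and adult replicates 1 to 3 held 277.4, 438.4 and 487.2 TPM. Every adult sample was thus far above every embryonic one. On the log2(TPM + 1) scale *S100a4* went from 4.07 ± 0.43 (SD, n = 3) to 8.61 ± 0.43, a difference of 4.54 with a standard error of 0.271 (limma, adjusted p = 6.0e-06), and its mean TPM was 24.5 times as high. Of 10 fibroblast and tendon markers 7 were lower in adult chondrocytes, beside 21.4% of all genes. *Dcn*, which encodes decorin, was the 1 that was higher. The markers summed to 13060 to 15480 TPM in embryonic and 6754 to 7547 TPM in adult samples, and the part of such cells in the *S100a4* level was not tested.

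*S100a6* was the most abundant S100 transcript of adult chondrocytes. It encodes calcyclin, which binds annexin A11 and the calcyclin-binding protein CACYBP. The gene (ENSMUSG00000001025) lies at chr3:90612882-90624181, on the same strand as *S100a4*. Its embryonic levels were 442.3, 617.8 and 542.6 TPM, against adult levels of 2651, 2323 and 2554 TPM. Among all genes it ranked between 238 and 344 in embryonic chondrocytes but between 28 and 31 in adult ones. On the log2 scale it went from 9.05 ± 0.24 (SD, n = 3) to 11.29 ± 0.10, a rise of 2.24 with a standard error of 0.146 (limma, adjusted p = 9.9e-06).

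The 250 bases before the start sites of *S100a4* and *S100a6* are shown because these genes had the largest rise and the highest adult level. They are from RefSeq on GRCm38.p6 and read 5′ to 3′ on the plus strand, at chr3:90603520-90603769 for *S100a4* and chr3:90612644-90612893 for *S100a6*. In all sequences shown, capitals mark letters that match TGANTCA (the AP-1 motif) or ACAATG (a SOX motif) on either strand, and these promoters hold no match.
S100a4: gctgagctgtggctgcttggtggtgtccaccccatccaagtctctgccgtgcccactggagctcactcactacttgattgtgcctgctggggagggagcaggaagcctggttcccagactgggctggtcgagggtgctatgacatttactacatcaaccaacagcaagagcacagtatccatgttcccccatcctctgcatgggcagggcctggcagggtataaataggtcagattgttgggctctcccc
S100a6: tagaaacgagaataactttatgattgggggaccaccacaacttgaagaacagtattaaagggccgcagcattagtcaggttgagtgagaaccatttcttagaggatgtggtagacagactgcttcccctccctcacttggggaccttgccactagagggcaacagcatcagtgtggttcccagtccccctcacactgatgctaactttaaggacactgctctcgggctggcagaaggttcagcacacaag

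*S100a1* and *S100a13* are neighbours that are transcribed away from each other, and both rose. S100A1 regulates calcium handling in heart and skeletal muscle and is a known chondrocyte protein, and S100A13 takes part in the export of FGF1, a growth factor without a signal peptide. *S100a1* (ENSMUSG00000044080) lies at chr3:90511034-90514392 on the minus strand and *S100a13* (ENSMUSG00000042312) at chr3:90514435-90524581 on the plus strand. *S100a1* measured 23.8, 34.8 and 50.7 TPM in the embryonic replicates, compared with 108, 119.5 and 110.5 TPM in the adult replicates. *S100a13* measured 53.5, 74.7 and 44.9 TPM in the embryonic replicates, compared with 276.9, 259.8 and 240.8 TPM in the adult replicates. For either gene all adult values were above all embryonic values. The log2 level of *S100a1* rose by 1.66, with a standard error of 0.251 (limma, adjusted p = 9.1e-04), and that of *S100a13* by 2.18, with a standard error of 0.190 (limma, adjusted p = 4.7e-05). The TPM ratio of *S100a13* to *S100a1* was 2.25, 2.14 and 0.885 in embryonic and 2.57, 2.18 and 2.18 in adult replicates, so embryonic replicate 3 stood below the other samples and the remaining values lay close together.

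The 104 bases between the RefSeq start sites of the pair, chr3:90514331-90514434 of GRCm38.p6, are shown on the plus strand. They lie upstream of both RefSeq starts and hold no match to either motif. The GENCODE span of *S100a1* given above reaches 90514392, so part of the stretch lies inside the gene as annotated there.
S100a1 and S100a13: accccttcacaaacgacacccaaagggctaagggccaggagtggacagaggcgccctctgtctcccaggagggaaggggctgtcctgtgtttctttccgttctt

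*S100b* is the member outside chromosome 3, at chr10:76253853-76261159 on the plus strand (ENSMUSG00000033208). S100B is abundant in glia and Schwann cells and, like S100A1, is a marker of chondrocytes. Its transcript was found at 23.7, 11.8 and 20.1 TPM in embryonic chondrocytes, compared with 40.9, 69.9 and 31.1 TPM in adult ones. The stages did not overlap, but each spanned a wide range. *S100b* rose by 1.28 on the log2 scale, with a standard error of 0.351 (limma, adjusted p = 0.0169). The limma adjusted p was 0.0632 without embryonic replicate 2 and 0.0573 without adult replicate 2. Of 9 Schwann cell markers 3 were tested and 1 was lower, beside 21.4% of all genes. They summed to 6.59 to 25.5 TPM in embryonic and 7.57 to 8.20 TPM in adult samples, with *Foxd3* and *Gfra3* at 0 in all 6. The 6 adipocyte markers, for another S100B-rich cell type, summed to 21.7 to 47.8 TPM in embryonic and 13.9 to 40.1 TPM in adult samples, nearly all of it *Fabp4*, which was tested and not called (limma, adjusted p = 0.451), while *Adipoq*, *Lep* and *Cfd* were at 0 in all 6 samples. The part of either cell type in the *S100b* level was not tested. The ratio of *S100a1* to *S100b*, whose products can pair with each other, was 1.00, 2.95 and 2.52 in embryonic and 2.64, 1.71 and 3.56 in adult replicates. The stages differed by 0.37 in the log2 ratio, less than the SD within either stage (exact two-sided permutation p = 0.6, where 3 samples against 3 allow no p under 0.1).

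The 250 bases before the *S100b* start, chr10:76253586-76253835 of GRCm38.p6 on the plus strand, are shown because it is the member apart from the chromosome 3 blocks. They too hold no match.
S100b: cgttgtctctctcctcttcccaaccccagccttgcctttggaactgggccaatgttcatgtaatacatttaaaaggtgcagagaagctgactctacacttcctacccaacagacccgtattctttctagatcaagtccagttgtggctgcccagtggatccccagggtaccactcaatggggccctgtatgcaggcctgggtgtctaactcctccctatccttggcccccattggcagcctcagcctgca

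*S100a10* and *S100a11* were the pair that fell. Their products bind annexins, as does that of *S100a6*, which rose. S100A10, whose loops no longer bind calcium, joins annexin A2 in a tetramer at the inner face of the plasma membrane, and S100A11 binds annexin A1. *S100a10* (ENSMUSG00000041959) lies at chr3:93555080-93564643 and *S100a11* (ENSMUSG00000027907) at chr3:93520488-93526287, both on the plus strand. *S100a10* stood at 1315, 1457 and 1382 TPM in embryonic replicates, and its adult replicates stood at 510.4, 556.9 and 866.1 TPM. *S100a11* stood at 1160, 1308 and 1076 TPM in embryonic replicates, and its adult replicates stood at 627.5, 370.7 and 631.3 TPM. All adult values were below all embryonic values for both genes, and adult replicate 3 was the highest adult sample for both. On the log2 scale *S100a10* fell by 1.14, with a standard error of 0.192 (limma, adjusted p = 0.00160), and *S100a11* fell by 1.16, with a standard error of 0.207 (limma, adjusted p = 0.00224).

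Their annexin partners did not move the same way. *Anxa2* gave 863.7, 857.6 and 842.6 TPM in embryonic and 520.1, 472.9 and 425.1 TPM in adult replicates, and it fell by 0.86 on the log2 scale (limma, adjusted p = 5.2e-04). The ratio of *S100a10* to *Anxa2* transcripts was 1.52, 1.70 and 1.64 in embryonic and 0.981, 1.18 and 2.04 in adult replicates. The adult ratios thus spread to both sides of the embryonic ones (log2 difference -0.28, exact two-sided permutation p = 0.4). *Anxa1* instead gave 503.9, 533.2 and 595.3 TPM in embryonic and 981.6, 1203 and 1173 TPM in adult replicates, and it rose by 1.04 on the log2 scale (limma, adjusted p = 3.2e-04). The ratio of *S100a11* to *Anxa1* transcripts was 2.30, 2.45 and 1.81 in embryonic and 0.639, 0.308 and 0.538 in adult replicates. *S100a11* was the more abundant of the pair in all 3 embryonic samples and *Anxa1* in all 3 adult samples. The log2 ratio differed by -2.20, with an exact two-sided permutation p of 0.1, the smallest that 3 samples against 3 allow, and of 0.3 when adjusted over the 3 ratios tested.

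**Figure D4:**
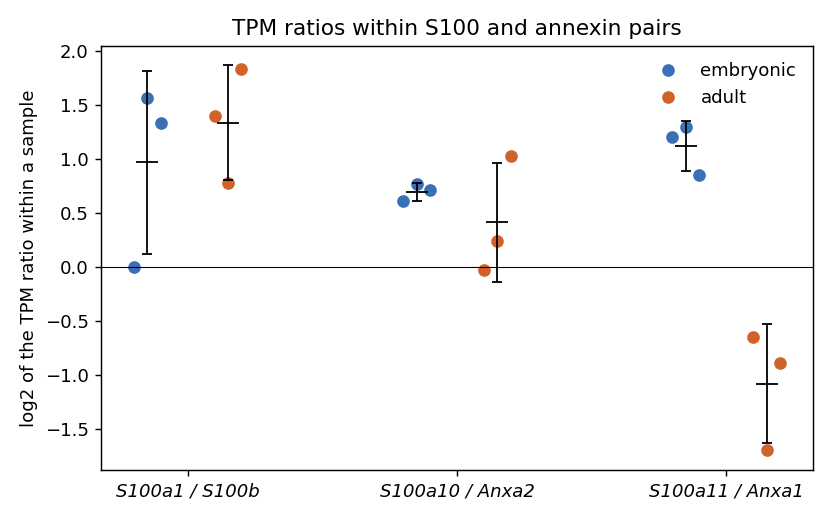
Log2 of the TPM ratio within each sample for *S100a1* to *S100b*, *S100a10* to *Anxa2* and *S100a11* to *Anxa1*, with 1 point per sample and black bars for the mean and SD of 3 samples. The stages separate for *S100a11* to *Anxa1* and overlap for the other ratios.

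The *S100a11* promoter is shown because, of the members that fell, it is the one with a sequence. The 250 bases before its start, chr3:93520246-93520495 of GRCm38.p6 on the plus strand, hold TGANTCA at 2 places, whose first bases lie at -136 and -38 from the start.
S100a11: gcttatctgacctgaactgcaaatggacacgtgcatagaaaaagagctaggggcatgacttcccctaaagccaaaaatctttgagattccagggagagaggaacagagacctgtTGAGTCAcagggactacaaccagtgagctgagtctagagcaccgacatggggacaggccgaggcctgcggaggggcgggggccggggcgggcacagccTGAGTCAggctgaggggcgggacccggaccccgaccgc
Of the 10 windows from 250 bases before to 50 after a start, which cover 9 members, 2 held TGANTCA and 1 held ACAATG. The matches outside *S100a11* lay in the second window of *S100a16*. Of all 32851 windows 7.81% held TGANTCA and 12.6% held ACAATG. *S100a10* was not matched.

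The calls differed between the blocks of S100 genes on chromosome 3. The first block runs from *S100a1* to *S100a9*, chr3:90511034-90695721, and holds 7 members, of which 6 were called higher, beside 23.9% of all genes, and *S100a16* was not called. The 6 include *S100a8* and *S100a9*, which were at 0 in every embryonic sample and whose calls were lost under most alternatives. The block holds 12 S100 genes in all, and *S100a3*, *S100a5* and *S100a7a*, the 3 others that were tested, were not called. The second block, of *S100a11* and *S100a10*, lies 2.82 Mb further on at chr3:93520488-93564643, and both its members were lower. This describes the 9 members within these blocks and was not tested.

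*S100a8* and *S100a9* were seen in 2 of the 6 samples. Their products form calprotectin, a zinc- and manganese-binding complex that neutrophils and monocytes hold in quantity and release in inflammation. *S100a8* (ENSMUSG00000056054) lies at chr3:90668978-90670035 and *S100a9* (ENSMUSG00000056071) at chr3:90692632-90695721 on the opposite strand. Both were listed at 0 in every embryonic replicate. In adult replicates 1 to 3 *S100a8* was listed at 36.4, 0 and 41.5 TPM and *S100a9* at 78.4, 0 and 32.5 TPM. Both were thus listed at 0 in adult replicate 2, a pair of the 6 such zeros counted above, and the ratio of *S100a8* to *S100a9* was 0.464 in adult replicate 1 and 1.28 in adult replicate 3. Both passed the threshold narrowly (limma, adjusted p = 0.0469 for *S100a8* and 0.0482 for *S100a9*), and no fold change is given against samples at 0. The call of *S100a8* was lost under 9 of 15 alternatives, with a limma adjusted p between 1.5e-04 and 0.149, and that of *S100a9* under 11 of 15, with one between 2.4e-04 and 0.153. In particular, it was 0.149 and 0.153 when adult replicate 1 was left out, 0.137 and 0.128 when adult replicate 3 was, and over 0.1 without any 1 embryonic replicate.

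Genes of myeloid cells were unequal among the same adult samples. Of 13 neutrophil markers in the table, 9 were above 0 in adult replicate 1, 5 in adult replicate 2 and 3 in adult replicate 3, against 1 in each embryonic sample. They summed to 83.0, 9.06 and 2.90 TPM in the adult replicates and to 1.07 to 1.99 TPM in the embryonic ones, with *Retnlg*, *Mmp8* and *Prtn3* at 0 in all 6 samples. Of the 5 tested, 0 were called by limma and 1, *Ngp*, had an unadjusted p under 0.05. Of 12 macrophage and leukocyte markers 8 were tested and 3 were higher in adult chondrocytes, beside 23.9% of all genes. They summed to 429.7 to 480.2 TPM in adult and 12.54 to 21.5 TPM in embryonic samples, most of it in *Cd14*, at 356.5, 457.8 and 364.3 TPM in the adult replicates. *Ptprc*, which encodes the CD45 that was gated out, had 2.29, 0 and 1.03 TPM in the adult replicates. The following were chosen after their values were seen. *Lyz2*, encoding lysozyme, had 30.7, 0.706 and 8.14 TPM, *Itgam*, encoding CD11b, had 18.2, 1.38 and 12.1 TPM, and *Ltf*, encoding the granule protein lactoferrin, had 44.5, 0 and 0 TPM in adult replicates 1 to 3. These were lowest or listed at 0 in adult replicate 2, but other markers of the same lists were not: *Cd14* and *Csf1r* were highest there, and *Camp*, *Ngp* and the neutrophil sum were lowest in adult replicate 3. The part of such cells in the values of *S100a8* and *S100a9* was not tested. The 9 keratinocyte markers, for another source of these proteins, summed to 23.1 to 31.5 TPM in embryonic and 53.3 to 54.6 TPM in adult samples. Of the 4 tested *Sfn* was higher, with 16.97, 15.4 and 20.3 TPM in embryonic and 49.2, 47.2 and 50.5 TPM in adult replicates (limma, adjusted p = 5.5e-04), while *Krt5* and *Krt14* were at 0 in all 6 samples, and their part was likewise not tested.

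**Figure D5:**
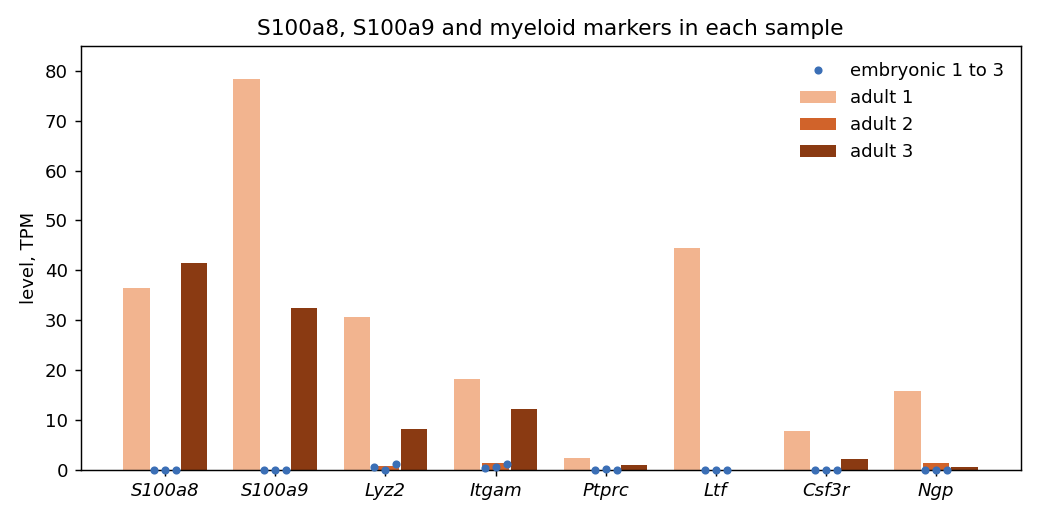
Level in TPM of *S100a8*, *S100a9* and 6 markers of myeloid cells that were chosen after their values were seen, with 1 bar per adult sample and blue points for the embryonic samples. The bars of adult replicate 2 and the embryonic points lie at or near 0 for all 8 genes. Those of adult replicate 3 are also low for *Ltf* (0 TPM), *Ngp* (0.625 TPM) and *Ptprc* (1.03 TPM). *Cd14* and *Csf1r*, whose highest adult values were in replicate 2, are not drawn.

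*S100a16*, a widely expressed member at chr3:90537254-90543151 (ENSMUSG00000074457), was not called. Its levels were 31.3, 42.7 and 45.4 TPM in embryonic replicates, compared with 73.0, 31.0 and 33.3 TPM in adult replicates. Adult replicate 1 was above all other samples, adult replicate 2 was the lowest and adult replicate 3 lay within the embryonic range. The log2 difference was 0.10, with a 95% interval of -0.64 to 0.84 (limma, adjusted p = 0.813). It was -0.28 without adult replicate 1, and the sign was thus not stable.

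In order of level, embryonic chondrocytes had *S100a10* first and then *S100a11*, whose highest value was just under the lowest of *S100a10*, followed by *S100a6*. *S100a13*, *S100a16* and *S100a1* came next with overlapping ranges. *S100b* and *S100a4*, at 11.8 to 23.7 TPM and 12.95 to 22.8 TPM, did not differ beyond their spread. In adult chondrocytes *S100a6* stood above all others, and *S100a10* and *S100a11* followed with overlapping ranges. *S100a4*, at 277.4 to 487.2 TPM, overlapped *S100a11* but lay below *S100a10* in every sample, and *S100a13* and *S100a1* came after it.

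The rest of the family was low. *S100a2* and *S100z* were listed at 0 in all 6 samples, and *S100a14* did not exceed 0.375 TPM. *S100a3* ranged over 1.18 to 6.50 TPM in embryonic and 1.53 to 3.10 TPM in adult samples, and *S100a7a* over 1.54 to 11.7 TPM and 1.96 to 16.1 TPM. *S100a5* was listed at 0, 7.64 and 0 TPM in embryonic replicates and 6.22, 0 and 19.2 TPM in adult replicates. *S100g*, the vitamin D-dependent calbindin-D9k, was listed at 0 in the embryonic replicates, with 0, 2.39 and 19.6 TPM in the adult ones. Of the 4 genes tested among these, 0 were called by limma, with adjusted p from 0.114 to 0.854, and 0 had an unadjusted p under 0.05. *S100a7l2*, *S100a12* and *S100p* were not matched in the table.

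Partners and receptors of S100 proteins were called in both directions. Of 23 genes 21 were tested. In adult chondrocytes 8 were higher, beside 23.9% of all genes, and 4 were lower, beside 21.4%. The median of their log2 fold changes was 0.34. *Tlr4*, which encodes a receptor for calprotectin, rose most on the log2(TPM + 1) scale, with 9.87, 8.30 and 12.7 TPM in embryonic and 59.8, 82.0 and 105.7 TPM in adult replicates, a difference of 2.87 (limma, adjusted p = 6.6e-05). *Ager*, encoding RAGE, had 0.583, 5.61 and 0.254 TPM in embryonic and 2.77, 2.01 and 2.45 TPM in adult replicates and was not called (limma, adjusted p = 0.539). *Mcam*, encoding a surface glycoprotein to which the S100A8 and S100A9 pair binds, had the largest fall, with 111.6, 100.3 and 111.5 TPM in embryonic and 0, 2.95 and 6.30 TPM in adult replicates (limma, adjusted p = 2.6e-04). *Fgf1*, whose product S100A13 helps to export, had the larger ratio of mean TPM, 18.8 against 8.02 for *Tlr4*, and is named for this after its values were seen. It had 0.774, 0.699 and 0.632 TPM in embryonic and 5.84, 6.65 and 27.0 TPM in adult replicates, a rise of 2.74 on the log2 scale (limma, adjusted p = 0.00518).

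Other genes for EF-hand proteins were likewise called in both directions. Of 32 genes 31 were tested. In adult chondrocytes 10 were higher, beside 23.9% of all genes, and 9 were lower, beside 21.4%. The median of their log2 fold changes was -0.24. *Sparc*, encoding the secreted collagen-binding protein osteonectin, rose by 2.34 (limma, adjusted p = 4.7e-06) and reached 12740 to 14140 TPM. *Capns1*, for the small subunit of calpain, rose by 1.98 (limma, adjusted p = 6.7e-05). *Calml4*, for a calmodulin-like protein, fell between 24.1, 20.7 and 18.6 TPM in embryonic and 1.48, 2.05 and 0 TPM in adult replicates (limma, adjusted p = 5.5e-04). *Efhd1*, for a mitochondrial EF-hand protein, had 4.74, 12.1 and 10.8 TPM in embryonic replicates and was listed at 0 in all adult ones (limma, adjusted p = 7.9e-04).

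Genes with the profiles closest to *S100a4* and *S100a11* were found by the root mean square difference of log2(TPM + 1) over the 6 samples, after each gene's mean was taken off. For *S100a4* these were *Crebl2* (0.19), *Cemip* (0.19), which encodes a hyaluronan-degrading protein, and *Tprg* (0.26), which was listed at 0 in all embryonic samples. *Cemip* had 2.18, 1.83 and 3.29 TPM in embryonic and 48.8, 111.4 and 111.9 TPM in adult replicates, and like *S100a4* it was lowest among the adult samples in replicate 1. For *S100a11*, *Rpl36* (0.09), which encodes a ribosomal protein, and the fatty acid desaturase gene *Fads1* (0.09) were among the closest. *Rpl36* had 1667, 2025 and 1666 TPM in embryonic and 968, 652.6 and 1010 TPM in adult replicates, with its highest value in embryonic replicate 2 and its lowest in adult replicate 2, as for *S100a11*. Because the genes were picked over the same 6 samples, such shared orders follow from the choice and are no separate likeness.

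Transcripts of 8 of the 10 members shared no stretch of at least 50 bases at 95% identity with another annotated gene. *S100a4* shared 302 bases with *Gm42674*, and *S100a11* shared 297 bases with each of *Gm12854* and *Gm7665*. None of these is a row of the expression table, so how reads were divided between them could not be examined, and the values of *S100a4* and *S100a11* carry that uncertainty.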

How the data were processed

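RNA-seq of 3 embryonic and 3 adult samples was analysed, grouped by the labels. Per the methods, single-end reads were mapped to GRCm38 and levels were estimated with RSEM, and the authors deposited log2(TPM + 1) per Ensembl gene. RSEM's version and any gene filter are not given in the sources used here. The methods name a Nugen Ovation kit for the cDNA, the labels a Kapa mRNA-Seq kit. TPM keeps no depth.

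Symbols and positions are from GENCODE M21 (21902 identifiers matched, 130 not). Stages were compared with limma 3.58.1 in R 4.3.3 (lmFit, eBayes with trend, pseudocount 1, mean of at least 1 TPM, stage only), and ratios with an exact permutation test. EBSeq, which the methods name, was not used. The fit was tested on simulated data. Transcripts were compared with BLAST+ 2.17.0, and promoters are from RefSeq.

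Members and lists were chosen with earlier results of these data known. Named were all members and family genes, the paired annexins, *Ager*, *Tlr4*, the largest called changes among partners (1 each way) and EF-hand genes (2 each way), and the 3 nearest profiles of *S100a4* and *S100a11*, of which 1 is not reported here. Marker lists covered chondrocytes, neutrophils, macrophages and leukocytes, Schwann cells, skeletal muscle, adipocytes, keratinocytes, and fibroblasts and tendon. Of 10 muscle markers 6 were tested, 0 were higher and 2 lower, beside 23.9% and 21.4% of all genes. Alternatives changed the pseudocount, filter, scaling, variance model, replicate block and samples.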

Additional observations from a re-analysis of the deposited data

How the results depend on the processing

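Each member was refitted under 15 alternatives, 150 fits in all. The call and direction held in 125, the call was lost in 22 and the direction turned in 3. The lost calls were those of *S100a8*, *S100a9* and *S100b*. The 3 that turned were all of *S100a16*, which was never called, at -0.0396 under median of ratios scaling, -0.06 without embryonic replicate 1 and -0.28 without adult replicate 1. Its value reached 0.32 without adult replicate 2. The count of higher members lay between 4 and 6 with each sample left out in turn, 4 being without embryonic replicate 2, and it was 5 with a pseudocount of 0.1, without a filter, under quantile normalization and without the trend. The 2 lower members were called under every alternative. With the replicate number as a block, 7 members were higher and 2 lower, and no member's call changed. Same-numbered embryonic and adult samples did not deviate together (r across genes -0.01, -0.02 and -0.02). With so few samples, these correlations cannot exclude a shared batch or preparation. Among all genes, 4604 to 6035 were called. The values hold no depth, so a low level cannot be given a counting error.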
